A study of Homo sapiens with 12 samples.

Results

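The cytosolic ribosomal protein genes encode the proteins of the ribosomes that translate nuclear-encoded mRNAs. Their transcripts were followed in MDA-MB-231 cells, a human triple-negative breast cancer (TNBC) line, after knockdown of NONO, a nuclear RNA-binding protein of paraspeckles, or of PKM2, the pyruvate kinase isoform common in tumours. Genes were chosen by name, as RPL or RPS followed by a number with or without a closing A, together with RPLP0, RPLP1, RPLP2, RPSA and RPS4X, where the same identifier was present in the tables of both experiments. This gave 77 of the 60558 genes that the tables share, 46 of the large (60S) subunit and 31 of the small (40S) subunit. The naming rule uses no measured value, though the set was taken up with earlier results of these data known. All 77 had enough counts to be tested in both experiments.

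A ribosome holds 1 copy of most of these proteins, so the subunits need them in matched amounts, and proteins left unassembled are degraded. In vertebrates most of their mRNAs begin with a 5′ terminal oligopyrimidine (TOP) tract, a C followed by an unbroken run of C and T bases at the transcript start, through which mTOR and LARP1 set their translation and stability. Several of the proteins act outside the ribosome as well: RPL5 and RPL11 bind MDM2, the ubiquitin ligase of p53, when ribosome assembly fails.

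TOP tracts were searched in the promoter windows that RefSeq gives for GRCh38.p14, which run from 250 bases before to 50 bases after each annotated start. Windows were found for 62 of the 77 genes, and RPL5, RPL7, RPL23 and RPS2 were among those with none. A C followed by at least 4 bases that are each C or T, read on the transcript's strand only, lay exactly at the annotated start in 46 of the 62 (74.2%), against 5.14% of all 27305 genes with a window and 8.70% of 69 mitochondrial ribosomal protein genes. Such a run beginning within 10 bases of the start was found in 57 (91.9%), against 38.4% of all genes. The starts of 8 genes are printed because these members moved farthest or in opposite directions in the experiments. Each sequence has 10 bases before and 20 from the annotated start, 5′ to 3′ on the gene's strand, and the capitals mark the tract.
RPL10: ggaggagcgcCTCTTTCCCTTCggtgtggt
RPL22: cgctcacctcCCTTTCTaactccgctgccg
RPLP0: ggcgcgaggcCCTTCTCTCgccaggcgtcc
RPS4X: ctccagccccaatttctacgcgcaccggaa
RPL4: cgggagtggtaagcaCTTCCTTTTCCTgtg
RPL11: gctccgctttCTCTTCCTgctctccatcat
RPL13: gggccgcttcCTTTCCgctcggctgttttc
RPS26: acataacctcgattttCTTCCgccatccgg
The windows were RPL10 at chrX:154398367-154398396, plus strand, RPL22 at chr1:6199576-6199605, minus strand, RPLP0 at chr12:120201092-120201121, minus strand, RPS4X at chrX:72277229-72277258, minus strand, RPL4 at chr15:66504836-66504865, minus strand, RPL11 at chr1:23691796-23691825, plus strand, RPL13 at chr16:89560672-89560701, plus strand and RPS26 at chr12:56041908-56041937, plus strand. RPL10, RPL22, RPLP0, RPL11 and RPL13 had the tract at the start itself. In RPL4 it began 5 bases and in RPS26 6 bases further on, and the RPS4X window held no run that met the rule. RPL10 and RPL13 have 3 windows each and RPL11 has 2, and the one with the tract nearest its start is shown. The submitters' notes name hg19 for the files, so these windows were matched to the members by symbol.

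Each knockdown had 3 libraries and an NC (negative control) group of 3 libraries of its own, with the NC cells labelled WT, and the experiments shared no library. Poly(A)-selected RNA was read as pairs of 150 bases. The study's methods describe transient siRNA transfection, whose control is named NC as here, and stable shRNA, whose control is named Scr, without saying in so many words which was used for these libraries. The time of harvest is not given in the sources used here. An effect of losing the target and an effect of the reagent cannot be told apart. Nothing states that the repeats were separate cultures, so p-values measure the spread between these libraries, which may be technical. A library held 19861762 to 20981712 estimated counts in the NONO experiment and 24097948 to 28455268 in the PKM2 experiment. NONO was at 233, 222 and 227 TPM (a level scaled to transcript length and library size) in its NC libraries and at 48.3, 50.1 and 47.2 TPM after its knockdown. PKM, the gene of PKM2 and its isoform PKM1, went from 1806, 1769 and 1838 to 170.4, 170.3 and 164 TPM. The third PKM2 knockdown library stood apart from the other two of its group (chi-square per degree of freedom 13.4 and 11.4, against 3.47 between those), as the first NONO NC library did from its own (11.1 and 8.94, against 2.54).

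All 77 genes were abundant. In the NC libraries of the NONO experiment their mean level ran from 225 TPM for RPL22 to 4088 TPM for RPS18, with a median of 1336 TPM, and in those of the PKM2 experiment from 286 TPM for RPL36A to 4330 TPM for RPL41, with a median of 1476 TPM. Between 500 and 5000 TPM lay 71 genes in the first and 72 in the second. After RPS18 the highest in the NONO experiment were RPS27, a zinc-binding 40S protein, at 3947 ± 134 TPM and RPL41, a very short peptide, at 3799 ± 63.3 TPM (SD, n = 3 here and throughout). These neighbours did not differ beyond their spread. The lowest after RPL22 were RPL9 at 266 ± 1.86 and RPS14 at 296 ± 10.5 TPM. In the PKM2 experiment RPL41 was followed by RPS18 at 4099.5 ± 21.5 and RPL35 at 3219.8 ± 54 TPM, and RPL36A by RPS26 at 312 ± 6.84 and RPL9 at 345 ± 6.94 TPM.

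The order of the NC levels was much the same in both experiments, with Pearson's r = 0.90 and Spearman's rho = 0.92 over the log2 levels of the 77 genes, a description across genes of tables that were normalized separately. RPL36A departed most, at 1363, 1327 and 1254 TPM in one and 277, 292 and 289 TPM in the other. The readthrough gene RPL36A-HNRNPH2, which overlaps it, was at 2.01, 1.2 and 1 TPM in the first and 222, 171 and 239 TPM in the second. In counts scaled to library size the RPL36A libraries were closer, at 132, 131 and 129 and 103, 106 and 108 CPM. RPL10 is the only member whose listed gene length differs between the tables, 1284 against 2164 bases.

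**Figure D1:**
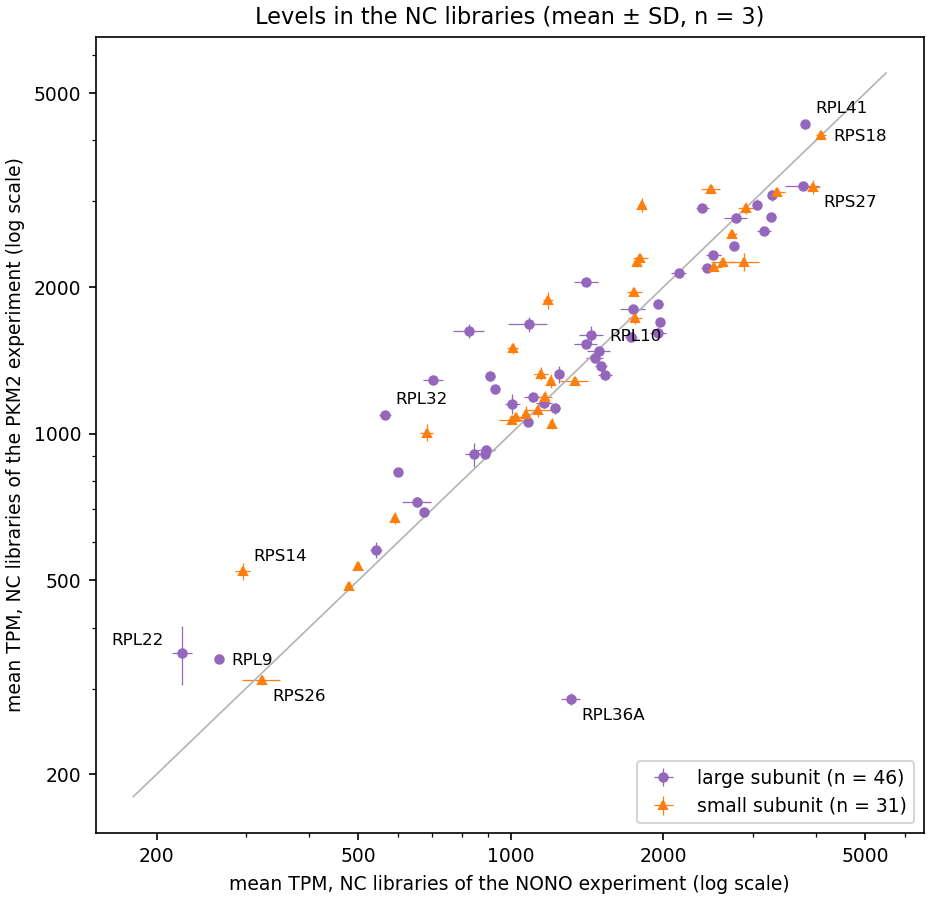
Mean TPM of the 77 genes in the NC libraries of the NONO experiment (horizontal, log scale) and of the PKM2 experiment (vertical, log scale), with SD bars over 3 libraries, circles for the large and triangles for the small subunit, and a line of equal level. Most genes lie near the line, and RPL36A lies far below it, with a mean of 286 TPM in the PKM2 experiment.

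The genes together took a larger share of the library after each knockdown. They held 3.53%, 3.48% and 3.46% of the estimated counts in the NC libraries of the NONO experiment and 3.70%, 3.81% and 3.78% after NONO knockdown, so that every knockdown library was above every NC library (3.49% ± 0.0342 against 3.77% ± 0.0560). In the PKM2 experiment the shares were 4.13%, 4.06% and 4.12% in NC and 4.16%, 4.23% and 4.81% after knockdown (4.10% ± 0.0417 against 4.40% ± 0.355). The groups did not overlap here either, but the third knockdown library set most of the difference: the log2 ratio of the means was 0.10 with it and 0.03 without it. Each comparison had an exact two-sided permutation p of 0.1, the smallest that 3 against 3 libraries allow. Of the summed TPM the share went from 12.5% to 13.3% and from 13.0% to 13.9%. The small subunit's count share overlapped between the groups in the PKM2 experiment, with NC at 1.52% to 1.56% and knockdown at 1.53% to 1.76% (exact permutation p = 0.5). In bulk RNA, more transcript of these genes and less of others, or a change in cell number and in RNA per cell, cannot be told apart. Reads of mitochondrially encoded genes moved the other way in the PKM2 experiment, from 5.40% to 4.58% of counts, and their part in the result was not tested.

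**Figure D2:**
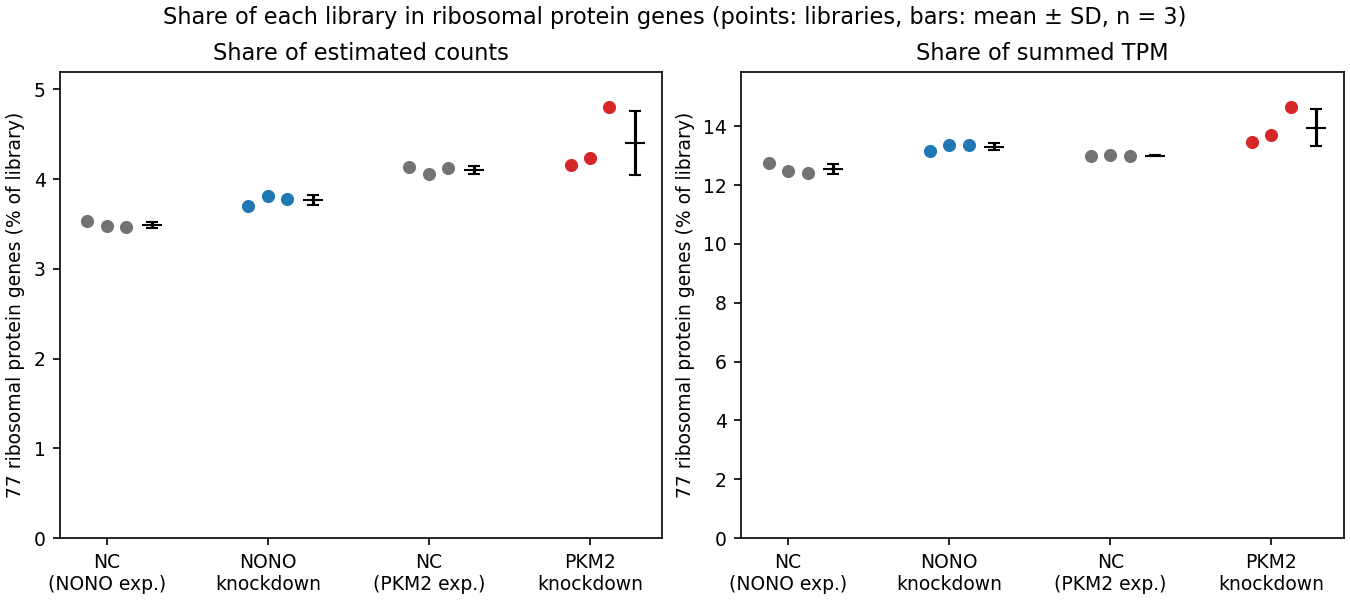
Share of each library (percent) that lay in the 77 genes, as estimated counts (left) and as summed TPM (right), for the 4 groups, with points for libraries and mean ± SD (n = 3) beside them. Both knockdown groups lie above their NC groups, and the third PKM2 knockdown library is highest in both panels, at 4.81% and 14.7%.

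After NONO knockdown the ribosomal protein transcripts rose by small amounts. In edgeR's quasi-likelihood test, with p-values adjusted over all genes by Benjamini-Hochberg, 53 of the 77 rose at an adjusted p below 0.05, where 16.2% of all 14832 genes tested rose, and 1 fell, where 17.2% fell. The median log2 fold change was 0.17 for the 77 and -0.01 for all genes. None passed the study's own cutoff, more than a 2-fold change and p below 0.05 before adjustment, taken here on edgeR's values. Of all genes 0.789% passed it upwards and 2.16% downwards. All 3 knockdown libraries lay above all 3 NC libraries for 59 members (22.6% of all genes). Fewer calls were made by limma on log2(TPM + 1), a change of tool, measure and filter together, which called 25 raised, and 11 without a filter on low values. The median was 0.08 after the median of genes of like abundance was taken off.

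Of the 31 small-subunit genes 26 rose and none fell, with log2 fold changes from 0.01 to 0.44 and a median of 0.19. Of the 46 large-subunit genes 27 rose and 1 fell, with values from -0.36 to 0.46 and a median of 0.14. The difference of the subunits was not tested.

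RPL11, one of the MDM2-binding members, rose most. It was at 269, 249 and 265 CPM (counts relative to library size after TMM normalization) in NC and at 347, 360.3 and 371 CPM after NONO knockdown, a log2 fold change of 0.46 (SE 0.05, adjusted p = 2.36e-05). The groups were well apart. RPS26, a 40S protein near the mRNA exit whose gene is one of those mutated in Diamond-Blackfan anaemia, was at 93.7, 80.6 and 83.8 CPM in NC and 110.0, 123 and 116 CPM after knockdown, a log2 fold change of 0.44 (SE 0.06, adjusted p = 0.000359). RPLP1, an acidic protein of the ribosomal stalk, had NC libraries within a narrow band at 373, 375 and 373 CPM and knockdown libraries at 477, 487 and 493 CPM (log2 fold change 0.38, SE 0.04, adjusted p = 2.18e-05). RPL39, a small protein in the wall of the exit tunnel, and RPS12, of the 40S beak, each rose by 0.37 on the log2 scale, from 86.9 ± 4.59 to 112 ± 1.52 CPM and from 259 ± 2.97 to 335 ± 8.4 CPM. With a log2 fold change of 0.30 (SE 0.06, adjusted p = 0.00211) RPS27 rose too, though its NC libraries spread widely, at 177, 193 and 209 CPM.

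RPL4 was the 1 member that fell. It is a core large-subunit protein with a loop that reaches into the exit tunnel, and was at 1009, 946 and 957 CPM in NC and 742, 759 and 768 CPM after NONO knockdown, a log2 fold change of -0.36 (SE 0.04, adjusted p = 4.87e-05). All knockdown libraries lay below all NC libraries, a pattern that 23.5% of all genes showed. RPL4 was called lower in all 16 fits that were run. Its 6 listed pseudogenes held 2 to 11 counts per library beside 14872 to 20471 counts for the gene. The other members at the low end did not pass the test: RPL24 at -0.05 (adjusted p = 0.531), RPL15 at -0.03 (adjusted p = 0.583), RPS15 at 0.01 and RPL26 at 0.02. RPS6, the 40S substrate of the S6 kinases, was at 349.6 ± 0.972 CPM in NC and 356 ± 12.9 CPM after knockdown (log2 fold change 0.03, SE 0.04, adjusted p = 0.677).

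After PKM2 knockdown most of the genes rose and a few fell. Of the 77, 50 rose, where 33.6% of all 15524 genes tested rose, and 9 fell, where 34.7% fell. The median log2 fold change was 0.24, against -0.01 for all genes, and the values spread from -3.07 to 0.83. Among the lowered genes were RPL10, RPL22, RPS4X, RPL32, RPS18, RPLP0, RPL31 and RPL14. By edgeR's fold changes RPL10 was the only member past the study's cutoff, which 13.8% of all genes passed downwards and 7.05% upwards. The study measured expression in TPM. In TPM RPL22 went from a mean of 354 in NC to 161 after knockdown, also more than 2-fold lower. Of the large subunit 33 rose and 7 fell, and of the small subunit 17 rose and 2 fell. Knockdown libraries lay wholly above NC for 50 members (35.0% of all genes) and wholly below for 9 (36.9%).

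With scaling to the total count alone the medians of all genes and of the members moved down alike, to -0.12 and 0.14, with 39 raised and 12 lowered. After subtraction of the median of genes of like abundance, the members' median was 0.01. Without the third knockdown library it was 0.18, with 50 raised and 13 lowered.

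RPL10 fell most. Its protein joins the 60S subunit late, in the cytoplasm, near the sites where tRNA binds. RPL10 was at 502, 495 and 504 CPM in the NC libraries and at 59.5, 57.5 and 62.3 CPM after PKM2 knockdown, 8.37-fold lower, with a log2 fold change of -3.07 (SE 0.05, adjusted p = 8.16e-12). The replicates of each group lay within a few CPM of each other and the groups were far apart. These values rest on 12475 to 14720 estimated counts per NC library and 1339 to 1571 per knockdown library. In TPM it went from 1458, 1492 and 1479 to 138, 135 and 136, from near the middle of the 77 to the lowest. After NONO knockdown RPL10 was at 526, 523 and 535 CPM against 508, 470.3 and 463 CPM in NC, a log2 fold change of 0.14 (SE 0.04, adjusted p = 0.0324) whose call was lost in 10 of 15 other settings. The difference between the knockdowns was -3.21 (SE 0.07, adjusted p = 2.18e-15). The 19 pseudogenes named for RPL10 held 0 to 7 counts per library in the PKM2 experiment, and its autosomal copy RPL10L held 1 count in 1 knockdown library and 0 in the other 5.

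RPL22, an RNA-binding 60S protein that is dispensable for bulk translation, was at 304, 276 and 279 CPM in NC and 143, 142 and 157 CPM after PKM2 knockdown, and the log2 fold change was -0.96 (SE 0.06, adjusted p = 4.09e-08). Every knockdown library was well below every NC library. After NONO knockdown it was at 268, 281 and 279 CPM against 275, 254 and 260.1 CPM in NC (log2 fold change 0.07, SE 0.04, adjusted p = 0.251), with overlapping groups, and the difference between the knockdowns was -1.04 (SE 0.08, adjusted p = 6.18e-09). The 22 pseudogenes named for RPL22 held 442 to 512 counts per NC library and 264 to 367 per PKM2 knockdown library. The gene itself held 6959 to 8918 and 3300 to 3969 there. In the NONO experiment these pseudogenes held 15 to 43 counts in NC and 89 to 132 after knockdown. RPL22 protein is known to hold down its paralog RPL22L1. RPL22L1 rose after both knockdowns, by 0.44 (SE 0.09, adjusted p = 0.0037) after that of NONO and 0.40 (SE 0.08, adjusted p = 0.0012) after that of PKM2, with a difference of -0.05 (adjusted p = 0.754).

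The other 7 lowered members fell by much less. RPS4X, the X-linked copy of a 40S core protein, was at 439, 423 and 435 CPM in NC and 328, 335 and 376 CPM after PKM2 knockdown (log2 fold change -0.32, SE 0.06, adjusted p = 0.00029). RPL32 was at 377, 369.9 and 384 CPM in NC and 284, 299 and 356 CPM after knockdown (log2 fold change -0.27, SE 0.07, adjusted p = 0.00591). In both genes the third knockdown library was nearest to NC. RPS18 fell by 0.21, RPLP0 by 0.20, RPL31 by 0.20 and RPL14 by 0.16 on the log2 scale. RPL10, RPL22, RPL32, RPLP0, RPS18 and RPS4X were called lower in all 16 fits that were run, and RPL31 and RPL14 in 14 and 13 of them.

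Among the members that rose after PKM2 knockdown, RPL13 rose most. This large-subunit protein was at 484, 485 and 506 CPM in NC and 795, 837 and 987 CPM after knockdown, a log2 fold change of 0.83 (SE 0.07, adjusted p = 7.92e-07). The groups did not overlap and the third knockdown library was highest. RPL11 followed, at 327, 300.1 and 312 CPM in NC and 485, 476 and 557 CPM after knockdown (log2 fold change 0.69, SE 0.06, adjusted p = 1.33e-06). RPS26 was at 101, 92.9 and 97.9 CPM in NC and 134, 152 and 162 CPM after knockdown (log2 fold change 0.62, SE 0.07, adjusted p = 7.46e-06). RPL17, at the rim of the tunnel exit, rose by 0.61, from 233 ± 8.57 to 357 ± 37.2 CPM. The readthrough gene RPL17-C18orf32 rose as well, from 39.8 to 57.0 CPM (log2 fold change 0.52, SE 0.08, adjusted p = 0.000144). How reads were divided between it and RPL17 was not tested. RPS16, a 40S head protein, rose by 0.59, from 373 ± 12.7 to 563 ± 60.9 CPM. RPS6 rose by 0.37 and RPL3, a protein next to the peptidyl transferase centre, by 0.38. Of the 50 raised members, 36 were called higher in all 16 fits. After NONO knockdown that held for 11 of the 53 raised members.

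**Figure D3:**
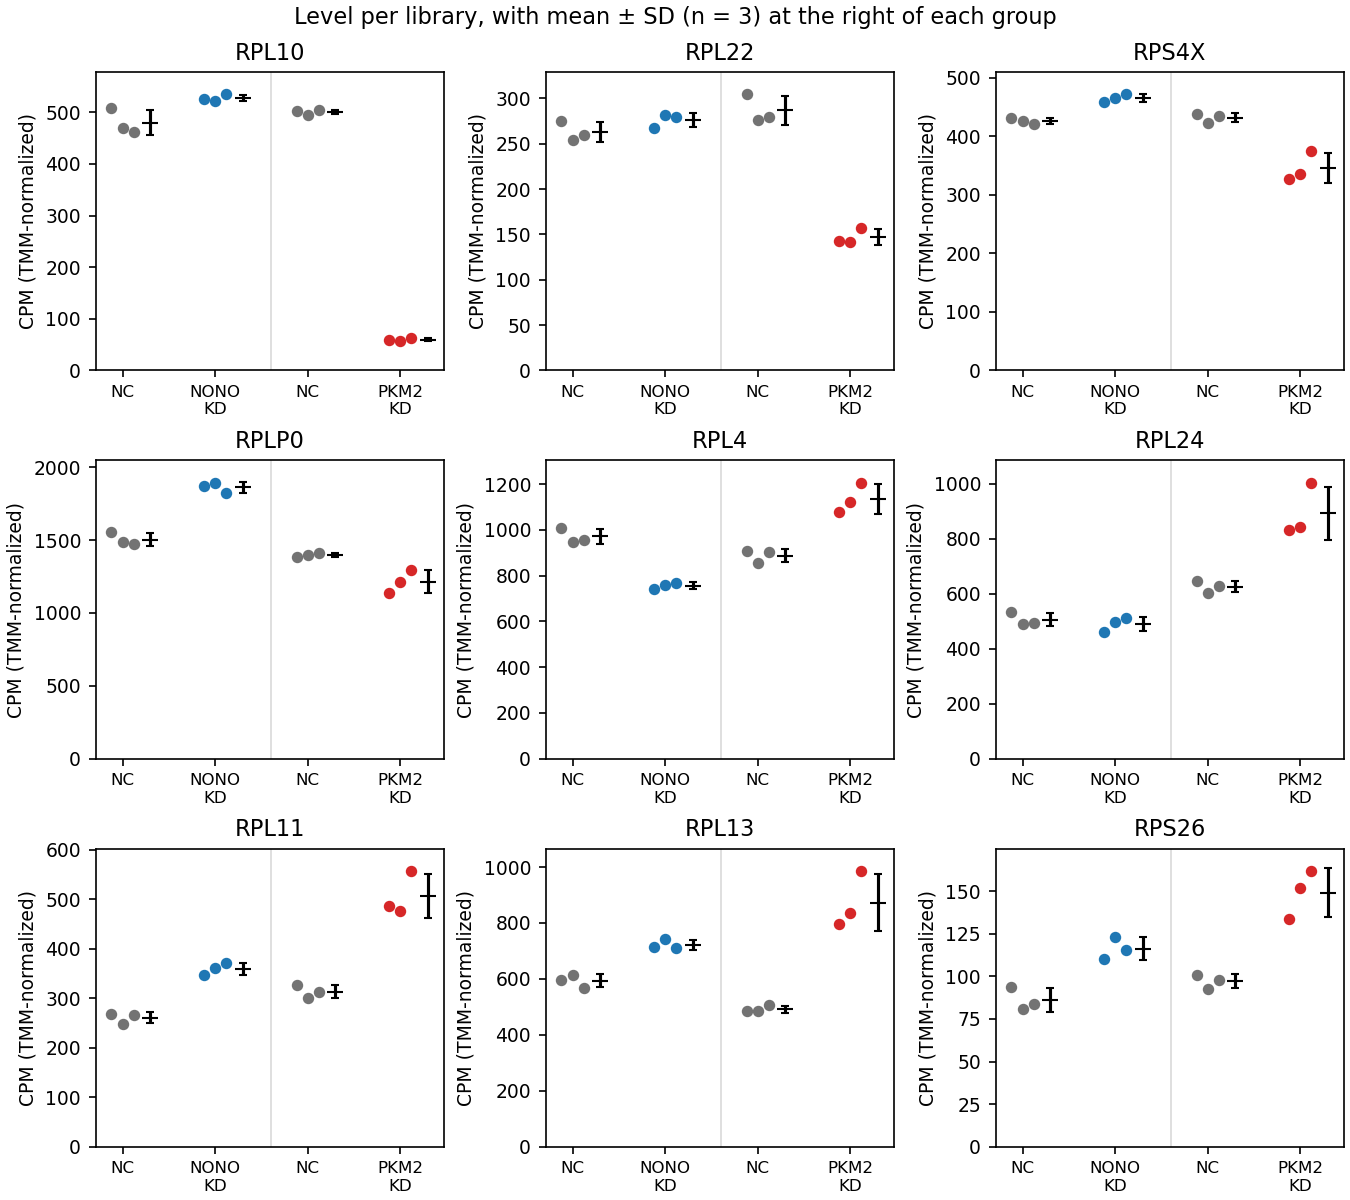
CPM after TMM normalization (vertical axes from 0) of 9 members in every library of the 4 groups, with mean ± SD (n = 3) at the right of each group and a line between the experiments. RPL10 and RPL22 drop after PKM2 knockdown, to 59.8 and 147 CPM, and RPL4 drops after NONO knockdown and rises after PKM2 knockdown.

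The knockdowns were then compared gene by gene in a joint edgeR fit of all 12 libraries, in which the interaction term sets the change of PKM2 knockdown from its NC group against that of NONO knockdown from its own. Rising in both experiments were 30 members (9.34% of the 14525 genes tested in both), and falling in both was none (9.93%). A set of 8 members, with RPL10, RPL14, RPL31, RPL32, RPLP0, RPS18 and RPS4X among them, rose after NONO and fell after PKM2 knockdown (3.79% of genes), and the interaction passed the test for each of them. The rise after NONO knockdown was the fragile side: RPL10, RPL14, RPL32 and RPS4X were called higher there in 6, 6, 5 and 8 of 16 fits, and leaving out any 1 of the NONO knockdown libraries ended the call of RPL10 and of RPL32. RPL4 did the opposite (4.18%). RPL10A, RPL18 and RPL26 were called in neither experiment (23.0%). The interaction passed the test for 34 members. Of the 77, 15 had the lower value after PKM2 knockdown (19.5%, against 27.4% of genes tested) and 19 the higher (24.7%, against 25.7%). With total-count scaling these were 19 and 16. Without the first PKM2 knockdown library 30 were higher, and without the third 24 were lower.

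RPL4 gave the clearest contrast after RPL10 and RPL22. It rose after PKM2 knockdown from 906, 853 and 902 to 1077, 1121 and 1207 CPM (log2 fold change 0.36, SE 0.05, adjusted p = 7.27e-05), and its difference between the knockdowns was 0.70 (SE 0.07, adjusted p = 2.02e-07). RPL24, a protein that bridges the subunits, was at 533, 489 and 494 CPM in NC and 461, 498 and 509 CPM after NONO knockdown, with overlapping groups. After PKM2 knockdown it was at 831, 842 and 1004 CPM against 644, 603 and 627 CPM in NC, and the difference was 0.55 (SE 0.09, adjusted p = 9.68e-05). RPL13 differed by 0.53 (SE 0.09, adjusted p = 8.25e-05) and RPS4X by -0.46 (SE 0.07, adjusted p = 2.82e-05). For RPS26, which rose in both, the difference of 0.17 did not pass (adjusted p = 0.18), and for RPL39 it was 0.03 (adjusted p = 0.791). Across the 77 genes the log2 fold changes of the experiments had Pearson's r = 0.08 and Spearman's rho = 0.05, and r = 0.09 without RPL10, given as a description across genes that share libraries.

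**Figure D4:**
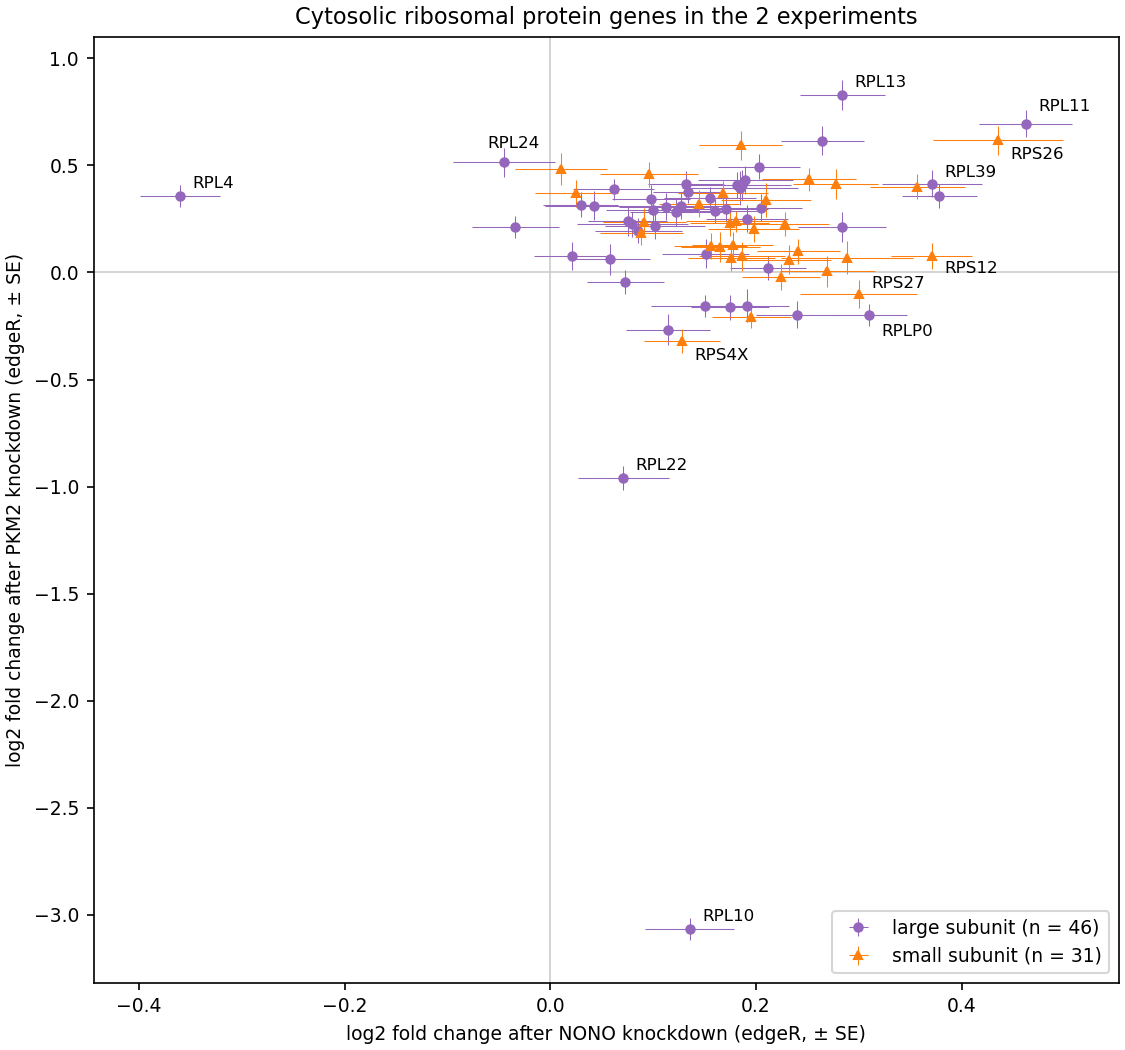
Log2 fold change of each of the 77 genes after NONO knockdown (horizontal) and after PKM2 knockdown (vertical), with SE bars from edgeR, circles for the large and triangles for the small subunit. Most genes lie in the upper right, RPL4 lies at -0.36 on the horizontal axis, and RPL22 and RPL10 lie at -0.96 and -3.07 on the vertical axis.

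The ribosomal stalk, which recruits the translation factors, is built from RPLP0 and pairs of RPLP1 and RPLP2. All 3 rose after NONO knockdown. RPLP0 was at 1552, 1485 and 1470.3 CPM in NC and 1871, 1895 and 1823 CPM after NONO knockdown (log2 fold change 0.31, SE 0.04, adjusted p = 8.79e-05), and RPLP2 rose by 0.19. After PKM2 knockdown the stalk moved unevenly. RPLP0 was at 1380.4, 1395 and 1410.2 CPM in NC and 1136, 1215 and 1295 CPM after knockdown (log2 fold change -0.20, SE 0.05, adjusted p = 0.00459), while RPLP1 rose by 0.36 and RPLP2 by 0.25. The difference between the knockdowns was -0.52 (SE 0.07, adjusted p = 4.81e-06) for RPLP0, -0.03 for RPLP1 and 0.05 for RPLP2, and only that of RPLP0 among the 3 passed the test.

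RPL5 and RPL11 form the 5S RNP with 5S rRNA. RPL5 was at 527, 521 and 523 CPM in NC and 668, 657 and 729.9 CPM after PKM2 knockdown (log2 fold change 0.39, SE 0.05, adjusted p = 2.39e-05), and at 496, 474 and 471 CPM in NC and 489.5, 507 and 508 CPM after knockdown in the NONO experiment (log2 fold change 0.06, SE 0.04, adjusted p = 0.26). The partners thus rose together after PKM2 knockdown, while only RPL11 of the pair passed the test after NONO knockdown. The mRNA of MDM2, whose protein they bind, fell after PKM2 knockdown, its log2 fold change being -0.57 (SE 0.06, adjusted p = 3.34e-06). It was at 0.12 (SE 0.05, adjusted p = 0.0674) after NONO knockdown. MDM2 protein was not measured in these libraries, and a link to the pair was not tested.

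Around the exit of the peptide tunnel, 5 of 9 genes rose and none fell after NONO knockdown, and 6 rose and 2 (RPL22 and RPL31) fell after PKM2 knockdown. The raised shares were 55.6% and 66.7%, beside 68.8% and 64.9% of the 77 members and 16.2% and 33.6% of all genes. The lowered share after PKM2 knockdown was 22.2%, beside 11.7% of the members and 34.7% of all genes. Of the 19 members mutated in Diamond-Blackfan anaemia, an inherited failure of red cell production, 11 rose after NONO knockdown (57.9%) and 14 rose (73.7%) and 1 (RPL31) fell after PKM2 knockdown, against the same shares of members and of all genes. RPS19, the most often mutated of them, was at 372, 349 and 356 CPM in NC and 374, 386 and 388 CPM after NONO knockdown (log2 fold change 0.09, SE 0.04, adjusted p = 0.107), and rose by 0.24 (SE 0.06, adjusted p = 0.00531) after PKM2 knockdown. RPS27A, made as a fusion with ubiquitin, rose by 0.20 (SE 0.04, adjusted p = 0.0051) and 0.20 (SE 0.06, adjusted p = 0.0104). FAU (RPS30, fused to a ubiquitin-like protein) rose by 0.16 after NONO knockdown and by 0.19 after PKM2 knockdown. RACK1, a scaffold on the 40S head, had log2 fold changes of 0.04 (SE 0.04, adjusted p = 0.424) and 0.04 (SE 0.06, adjusted p = 0.597). RPSA, a 40S protein also known as the laminin receptor precursor, rose by 0.18 and 0.24, and RPL7 was at 0.09 (adjusted p = 0.149) and 0.20 (adjusted p = 0.00951). RPSA lost its call after NONO knockdown without the third NC, the second knockdown or the third knockdown library. RPS27A lost its call after PKM2 knockdown without the third NC library, and FAU there without the second. Over all settings these adjusted p reached 0.286, 0.351 and 0.192. RPS19 and RPL7 lost their calls after PKM2 knockdown with total-count scaling and in the 3 limma fits (adjusted p up to 0.693 and 0.409 over all settings). After NONO knockdown FAU and RPS27A lost theirs in the 3 limma fits (up to 0.42 and 0.143).

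Of 8 paralogs of members, RPL3L and RPL10L had too few counts to be tested. RPL26L1 rose after both knockdowns, by 0.59 (SE 0.08, adjusted p = 0.000334) and 0.78 (SE 0.08, adjusted p = 3.54e-06), while RPL26 itself was at 0.02 and 0.08 and passed the test in neither. RPL7L1 rose after PKM2 knockdown by 0.62 (SE 0.04, adjusted p = 8.76e-08) and was at 0.06 (SE 0.06, adjusted p = 0.493) after NONO knockdown. RPL36AL fell by 0.23 after NONO knockdown and was at 0.02 after PKM2 knockdown, while RPL36A rose by 0.20 and 0.49. In the PKM2 experiment RPL36A was at 105 CPM in NC and 148 CPM after knockdown. The readthrough gene RPL36A-HNRNPH2 was at 51.0 and 49.6 CPM there (log2 fold change -0.04, adjusted p = 0.828). The division of reads between these overlapping genes was not tested. RPL39L was at 0.14 and -0.17 and RPS27L at -0.18 and 0.14, and neither passed the test in either experiment. How reads that match several copies were shared is not given in the sources used here, so members with near-identical copies are uncertain. The named pseudogenes of the members held 0.0310% and 0.0338% of the counts in the NC and knockdown groups of the NONO experiment and 0.0654% and 0.0724% in those of the PKM2 experiment.

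The changes were also set against the TOP tract, without a test. The 46 genes with the tract exactly at the annotated start had a median log2 fold change of 0.18 after NONO and 0.23 after PKM2 knockdown. The 16 without it there had 0.13 and 0.34, and some of these, such as RPL4 and RPS26, have a tract close by. By the looser rule, within 10 bases of the start, the medians were 0.17 and 0.24 for 57 genes with a tract and 0.16 and 0.29 for 5 without. RPL10 and RPL22, which fell after PKM2 knockdown, and RPL11 and RPL13, which rose most, all carry it in the sequences printed above. Of 17 mRNAs outside the ribosome known for TOP tracts, 10 rose (58.8%, against 16.2% of all genes) and none fell after NONO knockdown, with a median of 0.16. After PKM2 knockdown 10 rose (58.8%, against 33.6%) and 3 fell (17.6%, against 34.7%), with a median of 0.20. EIF3F, a subunit of initiation factor 3, rose most in both, by 0.52 (SE 0.04, adjusted p = 3.72e-06) and 1.17 (SE 0.07, adjusted p = 3.1e-08). EEF1A1, the elongation factor that brings tRNA to the ribosome, rose by 0.36 and 0.62. HNRNPA1, an RNA-binding protein, rose by 0.38 after NONO knockdown and fell by 0.21 after PKM2 knockdown. PABPC1, the poly(A)-binding protein, fell by 0.21 after PKM2 knockdown and was at 0.12 (adjusted p = 0.0802) after NONO knockdown.

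Of 14 genes that control the translation of TOP mRNAs, 1 rose and 3 fell after NONO knockdown, where 16.2% of all genes rose and 17.2% fell. After PKM2 knockdown 5 rose (35.7%) and 4 fell (28.6%), near the 33.6% and 34.7% of all genes. EIF4EBP2, a repressor of cap-dependent initiation, fell by 1.64 after NONO knockdown and was at 0.00 after PKM2 knockdown. MTOR fell by 0.81 and its target EIF4EBP1 by 0.75 after PKM2 knockdown, while TSC1, an inhibitor of the pathway, rose by 1.25 and LARP4B by 0.78. mTOR activity and translation were not measured in these libraries.

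Of 71 ribosome biogenesis genes, 25 rose (35.2%, against 16.2% of all genes), 3 fell and 43 were not called after NONO knockdown (median 0.12). After PKM2 knockdown 51 rose (71.8%, against 33.6% of all genes) and 9 fell (12.7%, against 34.7%), with a median of 0.27. NOLC1, a nucleolar phosphoprotein, rose most in both, by 1.64 (SE 0.06, adjusted p = 1.25e-08) and 2.14 (SE 0.05, adjusted p = 3.75e-11). TCOF1, the treacle protein of rRNA transcription, rose by 0.77 after NONO knockdown. After PKM2 knockdown NOC3L rose by 1.02, and IMP4 and SNU13, components of the small-subunit processome, fell by 1.07 and 0.91. Of 15 chaperones and importers of ribosomal proteins, 5 rose (33.3%, against 16.2% of all genes) and 4 fell (26.7%, against 17.2%) after NONO knockdown. After PKM2 knockdown 8 rose (53.3%, against 33.6%) and 6 fell (40%, against 34.7%). GRWD1, a histone-binding protein that also acts as the chaperone of RPL3, fell by 1.75 after PKM2 knockdown, where RPL3 rose by 0.38. BCCIP, the chaperone of RPL23, fell by 0.35 and PDCD2, that of RPS2, by 0.37 after NONO knockdown. RPL23 and RPS2 rose there by 0.19 and 0.22. These pairs were named after their values were seen, and the chaperones that rose are not set against their clients here. The median of all 77 members was itself 0.17 after NONO and 0.24 after PKM2 knockdown, and a link within a pair was not tested.

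The ribosomal proteins of mitochondria served for comparison, since they belong to another ribosome and mostly lack the tract. After NONO knockdown 13 of their 78 genes rose (16.7%, near the 16.2% of all genes) and 9 fell (11.5%, against 17.2%), where the median was 0.02 on the log2 scale. After PKM2 knockdown 47 rose (60.3%, against 33.6% of all genes) and 8 fell (10.3%, against 34.7%), with a median of 0.29. MRPL36 and MRPL45 rose most after PKM2 knockdown, each by 1.34 on the log2 scale, and MRPL37 fell by 0.45. Their share of the counts was 0.430% ± 0.0143 in NC and 0.426% ± 0.00807 after NONO knockdown (exact permutation p = 0.8). In the PKM2 experiment it was 0.466% ± 0.00255 in NC and 0.553% ± 0.0343 after knockdown, without overlap.

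**Figure D5:**
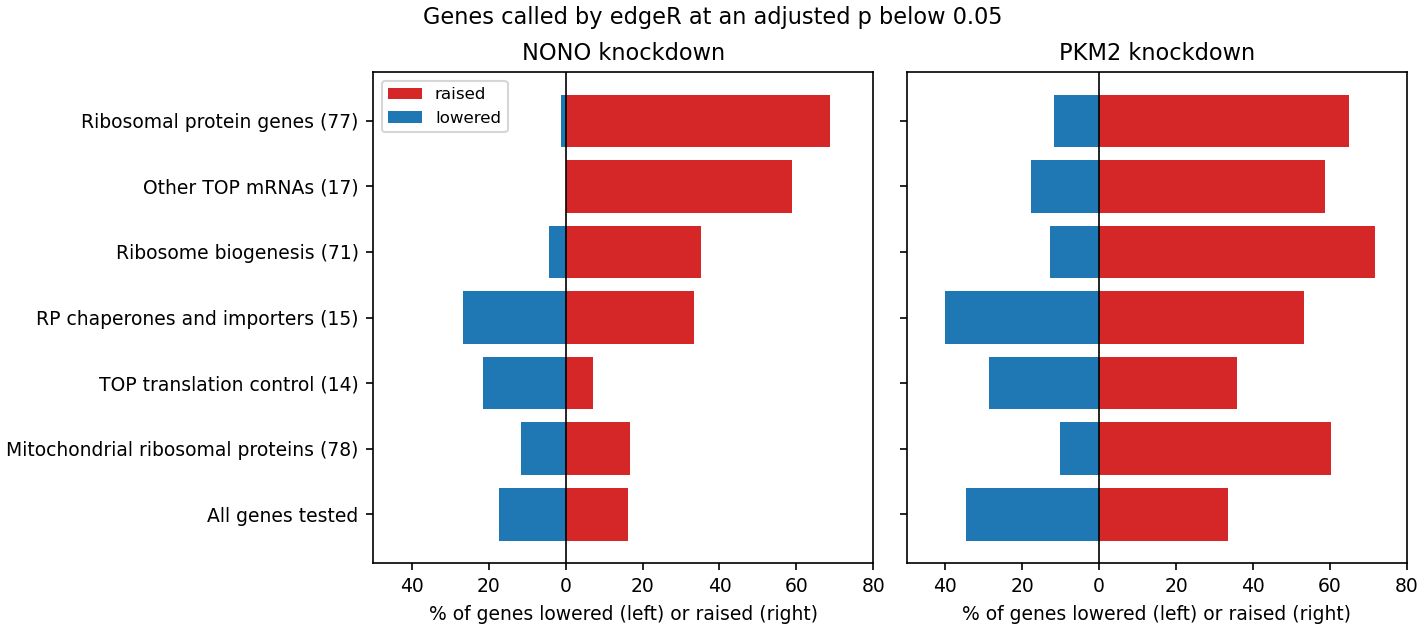
Percent of the genes of each list lowered (left of 0) or raised (right of 0) at an edgeR adjusted p below 0.05 after NONO knockdown (left panel) and PKM2 knockdown (right panel), with the number of genes tested in brackets and all genes tested at the bottom. The ribosomal protein genes stand at 68.8% raised after NONO knockdown and 64.9% after PKM2 knockdown, beside 16.2% and 33.6% of all genes.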

How the data were processed

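RNA-seq of 12 libraries gave 2 tables, 1 for each knockdown with its NC group. Per the file headers, the authors deposited estimated counts, TPM and gene lengths for 60623 and 60671 genes. The submitters' processing notes name fastp, HISAT2, StringTie, RSEM, DESeq2, edgeR, limma and hg19, without roles or versions. The authors' mean TPM and comparison columns (fold change, p-value, adjusted p, direction) were not used, and 0 columns of per-sample values were left unused.

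Estimated counts were rounded, genes filtered by filterByExpr at its defaults and libraries scaled by TMM. The main test was edgeR (4.0.16) glmQLFTest on each experiment, and on 15995 genes of the joined tables for the difference between the knockdowns, called at a Benjamini-Hochberg adjusted p below 0.05 over all genes. Means are given ± SD (n = 3), and fold changes with the SE of the fit. Shares were compared by exact two-sided permutation tests in scipy (1.17.1). Alternatives were DESeq2 (1.42.0), RLE and total-count scaling, TMM factors set without the members, no filter, a replicate block, limma (3.58.1) on log2(TPM + 1) and log2(TPM + 0.1), medians within 20 bins of length or abundance, and leaving out each library. Counts were also simulated with the same dispersion for every gene, not that of these libraries, with 100 genes changed 1.5-fold and 100 others 4-fold. Of the 1.5-fold changes edgeR recovered 64 in the NONO and 60 in the PKM2 design. Smaller changes, such as those of most members, were not simulated.

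Genes named singly were textbook members and those with paralogs, the 5 members highest and the 5 lowest in log2 fold change in each experiment, the 5 with the smallest interaction p, the 3 most and the 3 least abundant, members of classes that are counted, the target genes, the paralogs, and the 2 highest and 2 lowest genes of each comparison list. RPL14, and GRWD1, BCCIP, PDCD2, RPS2 and RPL23 as chaperones and their clients, were named after their values were seen. Some genes are not reported here. Members and lists were chosen with earlier results of these data known.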

Additional observations from a re-analysis of the deposited data

Results flagged for a closer look

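For 24 of the 43 genes named singly and tested for it, the log2 fold change after PKM2 knockdown and that after NONO knockdown differed by the interaction test of edgeR (adjusted p below 0.05). The same test passed for 34 of the 77 members, with 19.5% of the 77 lower and 24.7% higher after PKM2 knockdown. Of all genes, 27.4% were lower and 25.7% higher, so neither share of the members was above that of all genes. Of the named genes, 5 were chosen for the smallest interaction p and others for large changes in 1 experiment. Differences are given as PKM2 minus NONO. Lower after PKM2 knockdown were RPL10 (-3.21, adjusted p = 2.18e-15), RPL22 (-1.04, 6.18e-09), RPLP0 (-0.52, 4.81e-06), RPS4X (-0.46, 2.82e-05), RPS18 (-0.41, 6.24e-05), RPS27 (-0.41, 0.00119), RPL32 (-0.40, 0.00142) and RPS12 (-0.31, 0.00245). The mRNA of MDM2, whose protein RPL5 and RPL11 bind, was lower too (-0.70, 3.21e-07).

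Higher after PKM2 knockdown were RPL4 (0.70, adjusted p = 2.02e-07), RPL24 (0.55, 9.68e-05), RPL13 (0.53, 8.25e-05), RPS15 (0.46, 0.000689), RPS16 (0.40, 0.000923), RPL17 (0.34, 0.00296), RPS6 (0.33, 0.00217), RPL5 (0.31, 0.000679), RPL36A (0.28, 0.00358), RPL35 (0.26, 0.0262), RPL15 (0.23, 0.0111), RPL3 (0.23, 0.00554) and RPL11 (0.22, 0.0363), together with the paralogs RPL7L1 (0.55, 1.63e-05) and RPS27L (0.31, 0.0133). RPS27L passed in neither experiment alone. The difference for RPL11 lost its call in 9 of 21 other settings, 7 of them the omission of 1 library, and those for RPL15, RPL35 and RPS27L in 3 each.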

How the results depend on the processing

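The median log2 fold change of the 77 genes after NONO knockdown was 0.17 and ranged from 0.16 to 0.19 when a library was left out. It was 0.13 with total-count scaling, 0.10 by limma on log2(TPM + 1), 0.10 on log2(TPM + 0.1) and 0.10 with no filter, and 0.15 and 0.081 relative to genes of like length and like abundance. The median of all genes tested moved down as well, from -0.01 to -0.06 with total-count scaling. In the 3 limma fits, in the same order, it was -0.05, -0.06 and -0.02. The 53 raised members became 25, 25 and 11 in the 3 limma fits, and 39 to 68 when a library was left out. The log2 ratio of their library share was 0.083 in TPM. After PKM2 knockdown the members' median of 0.24 was 0.14 with total-count scaling, where that of all genes went from -0.01 to -0.12. It was 0.0060 relative to genes of like abundance, and 0.18 to 0.31 when a library was left out. The 9 lowered members became 14 in both filtered limma fits. In the test of the difference, 14 to 30 members were higher and 13 to 24 lower when a library was left out. RACK1 was called lower after PKM2 knockdown (-0.10) by limma on log2(TPM + 0.1), against 0.04 in the main test. The cause of these shifts was not tested. DESeq2 called 53 raised and 1 lowered after NONO and 52 and 9 after PKM2 knockdown.

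Libraries of the same repeat number did not deviate together (r from -0.07 to 0.04). This gave no sign of pairing by number but cannot exclude it, since each r rests on deviations from means of 3 libraries. With a replicate block 49 members rose and 1 fell after NONO knockdown (median 0.17), 50 rose and 10 fell after PKM2 knockdown (median 0.24), and 18 differences were higher and 16 lower. All 77 members passed the count filter, while 18 of 1132 listed pseudogenes passed it in the NONO experiment and 27 of 1226 in the PKM2 experiment. The effect of depth itself was not tested.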
